A study of Mus musculus with 6 samples.

Results

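The Fam129 family (also called Niban) has 3 members in the mouse, Fam129a, Fam129b and Fam129c, and was picked out by gene name. They are 3 of 37315 genes in the abundance table and 3 of 19402 in the table of allelic counts. Fam129c was singled out because its transcript abundance in these same libraries differed between clones, so its abundance and its allelic ratio are described here with no test. Fam129a stayed below both the abundance filter (a mean of 1 TPM over the libraries) and the coverage minimum (20 allelic counts in each library). Fam129b and Fam129c passed both.

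The family members share a pleckstrin homology domain, a fold that many signalling proteins use to bind membrane lipids. Fam129a is known as a stress-induced gene of the integrated stress response, the pathway in which eIF2-alpha phosphorylation slows translation and the transcription factor Atf4 is made. Fam129b protein sits at the cell membrane and cell junctions, is a substrate of the ERK kinases and has been studied in the invasion of melanoma cells. Fam129c is the B-cell member: it was described as a B-cell protein (Bcnp1) and is found in few other tissues.

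RNA was sequenced from 3 lines of immortalised B cells, Abl.2, Abl.3 and Abl.4, all of the strain 129S1/SvImJ x CAST/EiJ F1. Each line is a single clone. Per the labels Abl.3 is male and the others are female, so clone and sex cannot be told apart between Abl.3 and the others. All 6 libraries were untreated controls: live cells were taken on day 2 from medium that held 1% DMSO, the solvent. Each line had 2 library preparation replicates, so p-values below cover the spread between libraries of a clone, which may be technical, and not the spread between clones or animals. In F1 cells SNPs tell the maternal from the paternal copy, and the maternal share is the maternal fraction of the counts at those SNPs. All lines carry the same cross label, so the parent and the strain that an allele came from cannot be told apart. Allelic counts per library ran from 18362319 to 26881211. The depth behind the TPM values (transcript abundance scaled for gene length and library total) is unknown.

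The labelled cell type was checked against marker genes. The summed level of 5 B-lineage genes (Cd79a, Cd79b, Pax5, Ebf1, Blnk) was 4501 to 6562 TPM over the libraries, and that of 8 pro-B and pre-B genes 14899 to 16265 TPM. Mature B-cell genes summed to 9.87 to 12.8 TPM, with Ighd not analysed here, and 5 plasma cell genes to 65.1 to 110 TPM. Other cell types were low: 6 T-cell genes summed to at most 0.07 TPM, 4 stromal genes to at most 0.07 and 4 erythroid genes to at most 1.54, with Hbb-bs listed at 0 throughout. Myeloid genes summed to 158 to 193 TPM in Abl.2, 74.8 to 97.2 in Abl.3 and 77.9 to 89.4 for Abl.4. Lyz2 made up most of this in every library, Csf1r was at 0.3 TPM or below, and the macrophage genes Adgre1 and Cd14 were listed at 0 throughout. Itgam, an integrin of myeloid cells, was at 6.89 and 6.74 TPM in Abl.4, 0.72 and 0.97 in Abl.3 and 0.51 and 0.35 in Abl.2. Itgam passed the abundance filter only through Abl.4, so its log2 differences from Abl.4, -2.45 in Abl.2 and -2.09 in Abl.3, are a description. Lyz2 was higher in Abl.2 than in Abl.3 (1.04, adjusted p 0.00343 by limma) and Abl.4 (1.18, adjusted p 0.00233 by limma). By edgeR on summed allelic counts, 0 of 2 myeloid genes tested were higher in Abl.2 in either pair. The part of any of these in the results below was not tested.

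In GRCm38 coordinates, all 3 genes lie on the plus strand. Fam129a (ENSMUSG00000026483) covers chromosome 1, 151571186 to 151721939, and its longest coding transcript has 14 exons and 2778 coding bases. Fam129b (ENSMUSG00000026796) covers chromosome 2, 32876114 to 32925254, with 14 exons and 2247 coding bases. Fam129c (ENSMUSG00000043243) is the most compact, at chromosome 8, 71597648 to 71607936, with 15 exons and 1773 coding bases. It lies in a crowded stretch. The gene upstream, Pgls, runs on the same strand and overlaps Fam129c by 3445 bases, because 1 of 5 annotated Pgls transcripts runs on into it. The overlap shares 776 exon bases, 21.8% of the exon bases of Fam129c and 20.6% of those of Pgls. How reads in that overlap were counted is not given in the sources used here. Fam129b overlaps its downstream neighbour Lrsam1, on the minus strand, by 39 bases.

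The DNA just upstream of the 2 expressed members is shown first, as it stands in the reference genome. The sequences of the maternal and paternal alleles of these F1 cells were not read, and no SNP is marked. Sequences are from RefSeq promoters (GRCm38.p6), where all 3 members matched under the name Niban, plus strand, 5′ to 3′, and end at the base before the annotated start. The Fam129c stretch, chr8:71597458-71597647, has 190 bases and lies in an intron of the long Pgls transcript. Capitals mark matches to the E-box letters CANNTG, bound by E2A-type factors, and to CCCNNGGG, the core letters of the motif of the B-cell factor Ebf1. The Fam129b stretch, chr2:32875884-32876113, has 230 bases, and capitals mark its 11 CpG dinucleotides, the sites of DNA methylation in mammals.
Fam129c: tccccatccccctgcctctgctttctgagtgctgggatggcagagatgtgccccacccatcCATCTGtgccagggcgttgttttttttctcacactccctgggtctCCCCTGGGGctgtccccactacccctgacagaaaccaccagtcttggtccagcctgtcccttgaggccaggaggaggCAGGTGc
Fam129b: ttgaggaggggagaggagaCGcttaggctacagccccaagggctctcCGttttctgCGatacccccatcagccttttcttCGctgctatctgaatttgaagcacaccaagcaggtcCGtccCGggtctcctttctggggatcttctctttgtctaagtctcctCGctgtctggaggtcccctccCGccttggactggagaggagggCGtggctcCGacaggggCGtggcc

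The promoters differ in base composition. In the whole window, from 250 bases before to 50 after the RefSeq start, Fam129c has 1 CpG, against 20 in Fam129b and 16 in Fam129a. The median of 32851 RefSeq promoters is 7, and 14.1% of them have as few CpG as Fam129c. The GC content is alike, at 60.3% for Fam129c, 65.3% for Fam129b and 61.3% for Fam129a. On both strands, the Fam129c window has 6 E-box matches, 2 of them in the printed stretch, and the Fam129b window has 0, while 72.3% of all promoters hold at least 1. The Fam129c window holds 2 matches to CCCNNGGG that overlap each other in the run CCCCTGGGG, Fam129b has 1 and Fam129a 3, and 13.7% of promoters hold this motif. GAGGAA, the core of the motif of the factor PU.1, is found in Fam129a alone, and in 28.3% of promoters. Neither TATAAA (13.6% of promoters) nor TGATGNAAT, the composite motif bound by Atf4 (0.965% of promoters), is found in any of the 3 windows. A match is a string of letters in the reference sequence and not a measured binding site.

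Fam129a, the stress-response member, was close to undetected. It was listed at 0 TPM in 5 of 6 libraries and at 0.39 TPM in Abl.3 replicate 2. That library had 28 allelic counts, all maternal, which allows a paternal share of up to 10.7% (3 counts of the total, for counting error only). The other Abl.3 library had 1 maternal count, and the libraries of Abl.2 and Abl.4 had 0. Nearly all counts of the gene thus came from 1 library, and its replicate did not reach that level.

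Fam129b, the ERK substrate, was expressed at a modest level in every library. Its level was 24.5 and 21.6 TPM in Abl.2, 11.3 and 9.74 TPM in Abl.3, and 5.63 and 6.75 TPM for Abl.4. The line means were 23.1 ± 2.06, 10.5 ± 1.12 and 6.19 ± 0.792 TPM (n = 2, SD). The order Abl.2, Abl.3, Abl.4 held with no overlap between libraries of any pair of lines.

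On the log2(TPM + 1) scale, which understates changes of low genes, Fam129b was 1.06 (SE 0.14) higher in Abl.2 than Abl.3, with an adjusted p of 0.00181 by limma with Benjamini-Hochberg adjustment. Of the 11003 genes tested, 39.8% passed in this pair. It was 1.74 (SE 0.14) higher in Abl.2 than Abl.4, with an adjusted p of 0.000244 by limma, in a pair where 33.5% of genes passed. Between Abl.3 and Abl.4 the difference was 0.68 (SE 0.14), with an adjusted p of 0.0109 by limma, and 38.1% of genes passed. The call in this last pair was lost without Abl.3 replicate 1, where the difference was 0.58 with an adjusted p of 0.0723 by limma. Many genes passed in each pair, so a call alone does not set Fam129b apart, and its difference ranked 1104, 510 and 2122 among all genes in the 3 pairs. The rule for the family names TPM per library, so these limma results are given as a description. In bulk RNA, fewer cells that express a gene and less RNA per cell cannot be told apart.

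**Figure D1:**
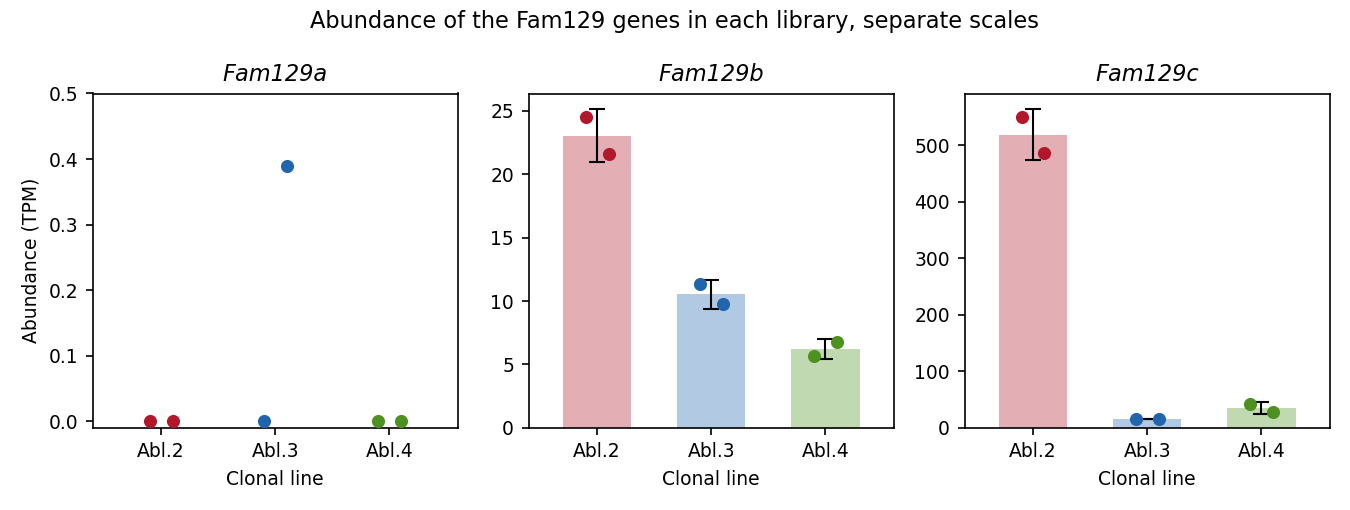
Abundance in TPM (y axis, a separate linear scale for each gene) of Fam129a, Fam129b and Fam129c in the 3 clonal lines (x axis). Points are libraries, bars the mean and black lines the SD of 2 libraries (points only for Fam129a); Fam129c reached 487 to 550 TPM in Abl.2 and stayed at 42.0 TPM or below elsewhere.

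Fam129c, the B-cell member, had the widest range. Its level was 550 and 487 TPM in Abl.2, 15.4 and 15.8 TPM in Abl.3, and 42.0 and 27.6 TPM for Abl.4. The means were 518 ± 44.7, 15.6 ± 0.304 and 34.8 ± 10.2 TPM (n = 2, SD). Both Abl.2 libraries lay far above all others, and both Abl.4 libraries lay above both Abl.3 libraries. The ratio of mean TPM was 33.2 for Abl.2 over Abl.3 and 14.9 for Abl.2 over Abl.4. Abl.3 stood at 0.448 of Abl.4. On the log2(TPM + 1) scale these differences were 4.97, 3.89 and -1.08, the ranks 32, 61 and 971 in size among 11003 genes, given as a description because abundance chose the gene. The gap between Abl.3 and Abl.4 was smaller in the reads at SNPs: with summed allelic counts it was -0.56 on the log2 scale. Fam129c was above Fam129b in every library, at 518 against 23.1 TPM in Abl.2 but 15.6 against 10.5 TPM in Abl.3.

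The alleles of Fam129c were then read apart. In Abl.2 nearly all output came from the maternal copy: the libraries had 19581 maternal and 248 paternal counts, and 21213 maternal and 273 paternal counts. In Abl.3 the counts were 500 maternal to 246 paternal in replicate 1, and 320 to 290 in replicate 2. In Abl.4 they were 836 to 233 and 717 to 309. The maternal share was 0.987 in both Abl.2 libraries, 0.670 and 0.525 in Abl.3, and 0.782 and 0.699 in Abl.4. The line means were 0.987 ± 0.00014, 0.597 ± 0.103 and 0.740 ± 0.0588 (n = 2, SD). The Abl.3 replicates differed by more than counting error, with Wilson intervals of 0.636 to 0.703 and 0.485 to 0.564, and so did those of Abl.4, at 0.756 to 0.806 and 0.670 to 0.726. In the authors' deposited table, the maternal fraction of Fam129c was 0.99 (limits 0.98 to 0.99) in Abl.2, 0.6 (0.48 to 0.72) in Abl.3 and 0.74 (0.64 to 0.83) for Abl.4.

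The log2 ratio of maternal to paternal counts of Fam129c, fitted with edgeR, was 6.29 (SE 0.17) in Abl.2, 0.60 (SE 0.19) in Abl.3 and 1.52 (SE 0.17) for Abl.4. These ratios are a description with no test, because the maternal share per line stands in the rule for the family and Fam129c was picked with results of these libraries known. In Abl.3 the ratio was 0.14 without replicate 1.

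Between lines, the log2 allelic ratio was higher in Abl.2 by 5.69 (SE 0.26) against Abl.3 and by 4.77 (SE 0.25) against Abl.4. Abl.3 was below Abl.4 (difference -0.92, SE 0.26). That last difference was -0.50 without Abl.3 replicate 2 and -0.61 without Abl.4 replicate 1, and the libraries of these lines do not overlap in share.

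Allelic counts were also scaled to CPM, counts for a fixed allelic total of 1000000 per library. On that scale the maternal allele of Fam129c gave 863 and 789 CPM in Abl.2, 25.2 and 17.4 in Abl.3, and 41.8 and 35.8 for Abl.4. The paternal allele gave 10.9 and 10.2 in Abl.2, 12.4 and 15.8 in Abl.3, and 11.6 and 15.4 for Abl.4. The maternal mean in Abl.2 was 38.8 times that in Abl.3 and 21.3 times that in Abl.4. The paternal mean was 0.748 and 0.778 times those of the same lines. The paternal allele thus lay between 10.2 and 15.8 CPM in all 6 libraries, while the maternal allele spanned 17.4 to 863 CPM. Pgls, which shares exon bases with Fam129c, gave 164 to 238 paternal CPM over the libraries, and was at 805 and 853 TPM in Abl.3 and Abl.4 where Fam129c was at 15.6 and 34.8 TPM. The part of Pgls reads in the paternal output of Fam129c, and in its levels and shares in Abl.3 and Abl.4, was not tested. The CPM values split the abundance difference by allele and were not tested, since that difference chose the gene.

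**Figure D2:**
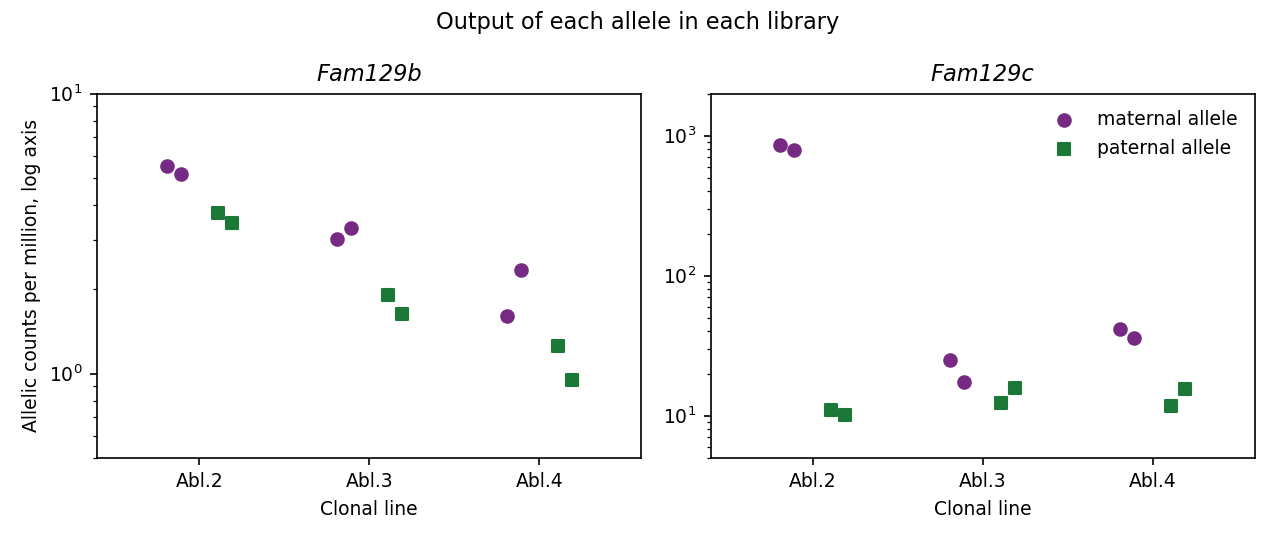
Allelic counts in CPM of the allelic total of the library (y axis, log scale) for the maternal (circles) and paternal (squares) alleles of Fam129b and Fam129c in the 3 clonal lines (x axis). Each point is 1 library; the maternal allele of Fam129c stands at 863 and 789 in Abl.2, while its paternal allele stays between 10.2 and 15.8 in all lines.

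Fam129b showed another pattern, with both alleles lower where the gene was lower. Its counts were 125 maternal to 85 paternal and 139 to 93 in Abl.2, 60 to 38 and 61 to 30 in Abl.3, and 32 to 25 and 47 to 19 for Abl.4. The maternal share was 0.597 ± 0.0028 in Abl.2, 0.641 ± 0.041 in Abl.3 and 0.637 ± 0.107 for Abl.4 (n = 2, SD). The maternal allele had more counts in 6 of 6 libraries, but no line passed: the log2 ratios were 0.57 (SE 0.30), 0.83 (SE 0.34) and 0.83 (SE 0.37), with adjusted p of 0.148, 0.0683 and 0.103 by edgeR's quasi-likelihood test. Among the 8702 genes tested, on autosomes and X, 49.1%, 45.1% and 39.9% were called unequal in these lines. The maternal share of Fam129b stands in the same rule for the family, so its adjusted p-values are given as a description. Allelic ratios of Fam129b were not shown to differ between lines. The differences were -0.27 (SE 0.45), -0.26 (SE 0.47) and 0.0061 (SE 0.63), with adjusted p of 0.750, 0.814 and 0.999 by edgeR, in pairs where 28.4%, 22.3% and 16.5% of genes passed. With libraries left out in turn, the imbalance in Abl.4 ranged from 0.35 to 1.30, and the differences from -0.45 to -0.09, -0.73 to 0.21 and -0.47 to 0.48. The gene had 57 to 232 allelic counts per library. Abl.2 gave 1.68 times the maternal and 2.03 times the paternal CPM of Abl.3, and 2.70 and 3.28 times those of Abl.4.

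The genes next to each member were compared in the same fits. They were the nearest 3 on each side with the minimum coverage, and any gene that overlaps the member. Around Fam129c these were Bst2, Mvb12a, Slc27a1, Pgls, Colgalt1, Unc13a and Jak3. The maternal share was higher in Abl.2 than in Abl.3 in 6 of the 7 by edgeR's test, and higher than in Abl.4 in the same 6, Mvb12a being the exception in both pairs. With a replicate block the Jak3 call against Abl.3 was lost (adjusted p 0.0624 by edgeR). Over all genes tested, 15.4% and 12.7% were called higher in Abl.2 in these pairs. Of 7 neighbours of Fam129b, 0 had an allelic difference in any pair by edgeR, 0 at an unadjusted p below 0.05 and 0 by DESeq2. Without Abl.3 replicate 1, Lrsam1 passed for Abl.2 minus Abl.3 (-1.85, adjusted p 0.0246 by edgeR) and Abl.3 minus Abl.4 (2.13, adjusted p 0.0263 by edgeR). Of 6 neighbours of Fam129a, 1 did: Rgl1, at 0.28 higher in Abl.2 than in Abl.4. That call was lost without Abl.2 replicate 1, Abl.2 replicate 2 or Abl.4 replicate 2 (adjusted p 0.153, 0.0614 and 0.0652 by edgeR). Of all genes, 28.4%, 22.3% and 16.5% were called in the 3 pairs. Line means of the share ran from 0.322 to 0.532 in the neighbours of Fam129a, so the genes around this nearly undetected member were read from both alleles.

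Slc27a1, a fatty acid transport protein that starts 28.8 kb before Fam129c, had the most extreme shares. It had 1083 maternal and 2 paternal counts, and 1216 and 3, in Abl.2. In Abl.4 it had 225 and 19, and 249 and 18. In Abl.3 it had 0 maternal counts against 73 and 60 paternal ones, which allows a maternal share of up to 4.11% and 5%. Most counts were thus maternal in Abl.2 and Abl.4, and all were paternal in Abl.3. Its abundance was 31.5 ± 2.78 TPM in Abl.2, 2.32 ± 0.0707 in Abl.3 and 8.95 ± 0.0424 for Abl.4 (n = 2, SD), the same order as for Fam129c. By limma, log2(TPM + 1) was 3.29 (SE 0.12) higher in Abl.2 than Abl.3, with an adjusted p of 1.02e-05, and 1.70 (SE 0.12) higher than Abl.4, with an adjusted p of 0.000129.

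Pgls, the pentose phosphate pathway enzyme 6-phosphogluconolactonase that overlaps Fam129c, had maternal shares of 0.796 ± 0.0024 in Abl.2, 0.532 ± 0.0044 in Abl.3 and 0.600 ± 0.0022 for Abl.4 (n = 2, SD). Its log2 allelic ratio in Abl.2 was 1.78 (SE 0.052) above that of Abl.3 and 1.38 (SE 0.052) above that of Abl.4, with adjusted p of 3.56e-10 and 4.02e-09 by edgeR. Abl.3 was below Abl.4, at -0.40 with an adjusted p of 0.000294 by edgeR. Its abundance was 1266 ± 108, 805 ± 43.2 and 853 ± 133 TPM (n = 2, SD). By limma it was 0.65 higher in Abl.2 than in Abl.3 (adjusted p 0.00746) and 0.58 higher than in Abl.4 (adjusted p 0.0137). Without Abl.2 replicate 1 those abundance calls were lost, with adjusted p of 0.0567 and 0.0962 by limma, as they were for the first pair without Abl.3 replicate 2 (0.0559) and for the second without Abl.4 replicate 2 (0.0532). Since Pgls and Fam129c share exon bases, the values of both are uncertain as separate genes.

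Colgalt1 and Unc13a do not overlap Fam129c. Colgalt1, a collagen galactosyltransferase that starts 13.4 kb after the start of Fam129c, had shares of 0.777 ± 0.0188 in Abl.2, 0.506 ± 0.0019 in Abl.3 and 0.522 ± 0.0089 for Abl.4 (n = 2, SD). Its allelic ratio was 1.77 (SE 0.11) and 1.68 (SE 0.11) higher in Abl.2 than in Abl.3 and Abl.4, with adjusted p of 2.25e-07 and 3.61e-07 by edgeR. Its abundance was 143 ± 4.42, 51.3 ± 5.22 and 77.2 ± 0.693 TPM (n = 2, SD), and limma gave 1.47 and 0.88 on the log2 scale, with adjusted p of 8.13e-05 and 0.000727.

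Unc13a, a synaptic vesicle priming protein, was at 2.77, 1.19 and 1.67 TPM in the line means, with shares of 0.877, 0.591 and 0.625. Its allelic ratio was 2.31 (SE 0.23) and 2.11 (SE 0.22) higher in Abl.2 than in Abl.3 and Abl.4, with adjusted p of 1.25e-05 and 2.65e-05 by edgeR. Abundance was 0.79 higher in Abl.2 than Abl.3, with an adjusted p of 0.0170 by limma; the call was lost without Abl.2 replicate 1, Abl.2 replicate 2 or Abl.3 replicate 1, with adjusted p of 0.0937, 0.0531 and 0.0853. Against Abl.4 it was 0.50, with an adjusted p of 0.0855 by limma, which did not pass; it passed with quantile normalisation (0.74, adjusted p 0.0291 by limma) and with summed allelic counts (1.02, adjusted p 0.000611 by edgeR). Unc13a is on the minus strand and its end overlaps that of Colgalt1 by 495 bases. No use of strand is stated, so reads in those bases cannot be told apart.

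The split by allele was then read in the neighbours. Maternal CPM in Abl.2 were 2.5 times those of Abl.3 for Pgls, 3.99 times for Colgalt1 and 4.21 times for Unc13a, and 2.33, 2.69 and 2.86 times those of Abl.4. Paternal CPM were 0.728, 1.17 and 0.854 times those of Abl.3, and 0.892, 0.843 and 0.652 times those of Abl.4. These maternal ratios were below the 38.8 and 21.3 of Fam129c, a gene chosen for its abundance difference. In Slc27a1 the paternal allele varied as well, at 0.0881 and 0.112 CPM in Abl.2 (2 and 3 counts), 3.67 and 3.27 CPM in Abl.3, and 0.950 and 0.900 CPM for Abl.4.

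**Figure D3:**
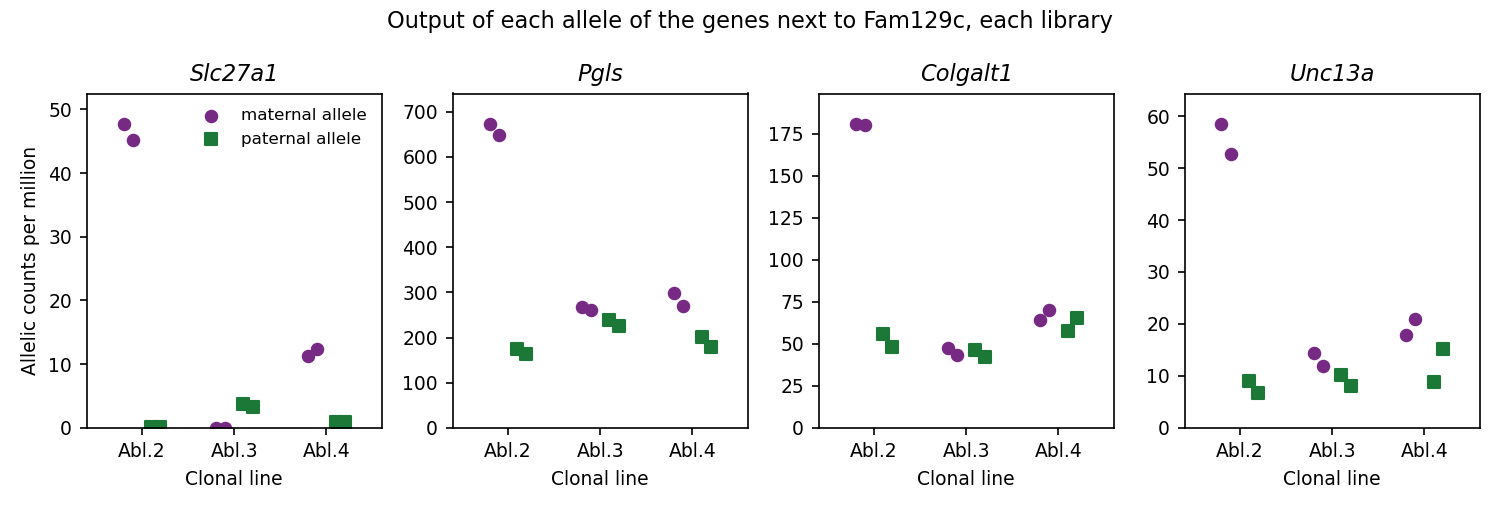
Allelic CPM (y axis, linear, a separate scale for each gene) from the maternal (circles) and paternal (squares) alleles of Slc27a1, Pgls, Colgalt1 and Unc13a in the 3 clonal lines (x axis), 1 point per library. The maternal allele is highest in Abl.2 in all 4 genes, and in Abl.3 Slc27a1 had 0 maternal counts.

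In the neighbours farther out, Jak3, Mvb12a and Bst2, the shares were near even or lay toward the paternal allele. Jak3, the kinase of the common gamma chain cytokine receptors, starts 78.6 kb after Fam129c and had shares of 0.536, 0.494 and 0.489 in Abl.2, Abl.3 and Abl.4. Its differences of 0.24 and 0.27 passed edgeR's test with adjusted p of 0.0482 and 0.0320. Each call was lost when any library of its own 2 lines was left out. The first was also lost with a replicate block (0.24, adjusted p 0.0624 by edgeR). Mvb12a, an ESCRT subunit 54.7 kb before, had shares of 0.430, 0.419 and 0.410, with adjusted p of 0.749 and 0.553 by edgeR against Abl.3 and Abl.4. Bst2 (tetherin), 63.4 kb before, was read mostly from the paternal allele, with shares of 0.430, 0.243 and 0.191. It was 1.25 and 1.67 higher in Abl.2, with adjusted p of 0.00114 and 0.000543 by edgeR, while its abundance was highest in Abl.3, at 184 TPM against 26.8 in both other lines.

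By the lower coordinate of each gene, 25 genes within 400 kb of the start of Fam129c had the minimum coverage. A share of at least 0.7 in both libraries, a level chosen after the values were seen, was found in 5 of the 25 in Abl.2: Slc27a1, Pgls, Fam129c, Colgalt1 and Unc13a. These are neighbours in a row over 103 kb (chromosome 8, 71568882 to 71671757). In Abl.3 the count was 0 and in Abl.4 it was 1, Slc27a1; Fam129c itself missed the level in Abl.4 by its lower library, at 0.699. On the whole of chromosome 8, 23 of 473 genes (4.86%) reached the level in Abl.2, 18 (3.81%) in Abl.3 and 21 (4.44%) for Abl.4. The median share of the chromosome was 0.503, 0.499 and 0.504, which does not show whether single genes were read evenly. Of the 24 other genes in the region, 6 had a higher and 3 a lower maternal share in Abl.2 than in Abl.3 by edgeR, against 15.4% and 13.0% of all genes. Against Abl.4, 8 were higher and 4 lower, against 12.7% and 9.61% of all genes. In abundance by limma, 9 were higher and 4 lower in Abl.2 than in Abl.3, and 4 and 3 against Abl.4, where 25.9% and 14.0%, and 15.0% and 18.4%, of all genes were. Both the share and the abundance were higher in 5 and 3 genes of the 24, against 4.59% and 2.68% of all genes tested in both. The first count holds Slc27a1, Pgls, Colgalt1, Unc13a and Jak3. Calls of Pgls, Unc13a and Jak3 were lost with single libraries left out, as given above, and Pgls shares exon bases with Fam129c.

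**Figure D4:**
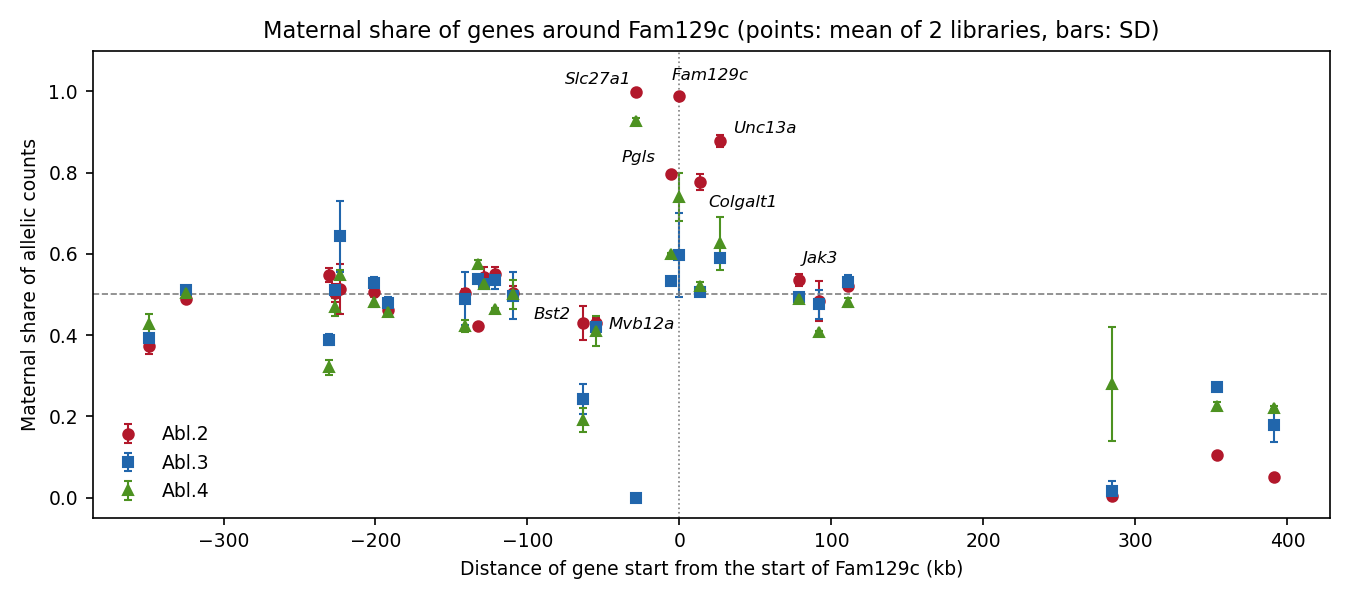
Maternal share of allelic counts (y axis) of 25 genes within 400 kb of Fam129c, for Abl.2 (circles), Abl.3 (squares) and Abl.4 (triangles). The x axis is the distance in kb from the start of Fam129c to the lower coordinate of each gene, its end on the minus strand. Points are means and bars the SD of 2 libraries; the dashed line is equal output, and Slc27a1, Pgls, Fam129c, Colgalt1 and Unc13a lie above 0.75 in Abl.2.

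Genes with an abundance pattern like that of a member were found by distance. The measure was the Euclidean distance between log2(TPM + 1) values over 6 libraries, each gene centred on its own mean, among 10868 genes, and carries no test. For Fam129c, whose line means spanned 4.97, the closest 5 were Serpina3g (distance 0.795), En2 (0.863), Akr1c13 (1.30), Spry1 (1.33) and Eci1 (1.38), against a median distance of 5.20. The choice depends on the pseudocount: with 0.1 in place of 1, 1 of these 5 stayed among the closest 5, and without Abl.3 replicate 2, 3 did. None lies on chromosome 8. Serpina3g, an intracellular serine protease inhibitor, was at 33.1 ± 3.35 TPM in Abl.2, 0.380 ± 0.170 in Abl.3 and 0.785 ± 0.134 for Abl.4 (n = 2, SD). The homeobox gene En2 was at 35.7, 0.165 and 0.540 TPM, and the aldo-keto reductase Akr1c13 at 251, 2.72 and 9.08 TPM. Spry1, a feedback inhibitor of the ERK pathway, was at 326 ± 27.4, 24.6 ± 1.71 and 32.3 ± 3.42 TPM (n = 2, SD). Eci1, an enzyme of mitochondrial fatty acid oxidation, was at 33.7, 0.045 and 0.090 TPM. The maternal share of Spry1, given with no test, was 0.954 in Abl.2, 0.536 in Abl.3 and 0.576 for Abl.4. Akr1c13 stayed below 0.5, at 0.414, 0.160 and 0.315, and the other 3 had too few allelic counts.

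For Fam129b, whose line means spanned 1.74, the closest genes were S1pr4 (distance 0.231), Usp18 (0.234), Xrcc5 (0.273), Cish (0.293) and Csrnp1 (0.313), against a median distance of 1.88. Of these 5, 3 stayed without Abl.2 replicate 1, without Abl.3 replicate 2 or without Abl.4 replicate 1. The lymphocyte sphingosine phosphate receptor S1pr4 was at 105, 47.0 and 30.7 TPM in Abl.2, Abl.3 and Abl.4. The ISG15 protease Usp18 was at 7.39, 2.64 and 1.42 TPM, and the DNA repair protein Xrcc5 (Ku80) at 37.2, 16.2 and 11.3 TPM. Cish, a feedback inhibitor of cytokine signalling, was at 384, 157 and 99.2 TPM, and Csrnp1 at 72.7, 34.8 and 19.8 TPM. Xrcc5 had shares of 0.600 in Abl.2, 0.666 in Abl.3 and 0.0029 for Abl.4, while those of the other 4 lay between 0.341 and 0.538.

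**Figure D5:**
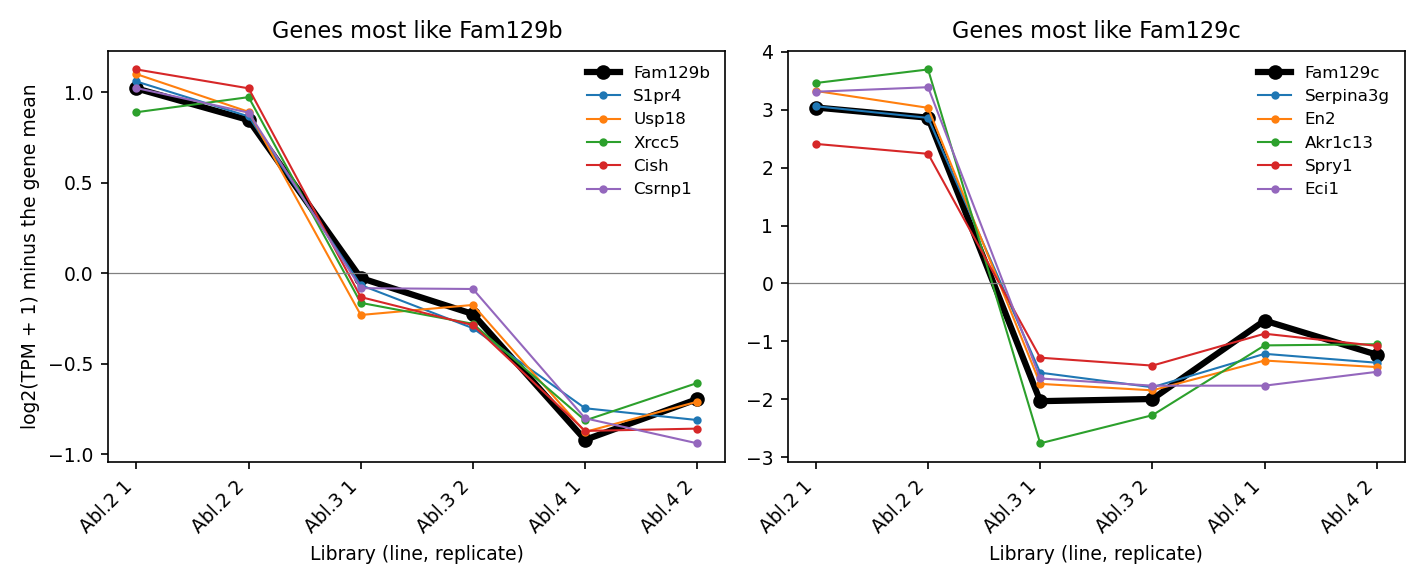
Abundance profiles over the 6 libraries (x axis, line and replicate) as log2(TPM + 1) minus the mean of each gene (y axis), for Fam129b with its 5 closest genes and Fam129c with its 5 closest genes. Lines join the values of 1 gene as a guide to the eye; the Fam129b set steps down from Abl.2 to Abl.3 to Abl.4, and the Fam129c set is high in Abl.2 and low in both other lines.

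The pathways tied to each member were described from gene lists. The median difference over all 11003 genes was 0.10, -0.03 and -0.15 for Abl.2 minus Abl.3, Abl.2 minus Abl.4 and Abl.3 minus Abl.4 on the log2 scale, and list counts are read against the shares of all genes called higher or lower. By edgeR on summed allelic counts, 42.1%, 37.2% and 37.3% of all genes were called in the 3 pairs, and 52.4%, 49.3% and 46.7% of these calls were higher in the first line. In the integrated stress response, the pathway of Fam129a, 33 of 34 genes were tested. By limma 4 were higher and 17 lower in Abl.2 than in Abl.3, where 25.9% and 14.0% of all genes were. Against Abl.4, 5 were higher and 16 lower, where 15.0% and 18.4% of all genes were. Between Abl.3 and Abl.4, 12 genes stood higher in Abl.3 and 6 lower (3 lower with quantile normalisation, and 3 of 30 by edgeR on summed allelic counts), where 11.3% and 26.8% of all genes were. The list medians were -0.32, -0.31 and -0.03, and the last turned to 0.04 and 0.23 under those alternatives. The counts lower than Abl.4 hold Vldlr against Abl.2 and Stc2 against Abl.3. Both genes passed the abundance filter only through Abl.4, so their part in these counts is a description. Stc2 was at 0.005, 0.155 and 3.05 TPM in Abl.2, Abl.3 and Abl.4.

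Cth (cystathionine gamma-lyase) had the largest difference of this list on the log2(TPM + 1) scale, which understates low genes such as Vldlr and Stc2. It was at 3.36 ± 0.389 TPM in Abl.2, 125 ± 3.63 in Abl.3 and 51.0 ± 4.30 for Abl.4 (n = 2, SD). It was lower in Abl.2 than in Abl.3 on the log2 scale (-4.85, adjusted p 1.84e-06 by limma), and Atf5 was lower too (-2.69, adjusted p 4.77e-05 by limma). Against Abl.4, Cth was lower in Abl.2 (-3.58, adjusted p 6.80e-06 by limma). Vldlr was at 0.01, 0.495 and 3.91 TPM in Abl.2, Abl.3 and Abl.4. It passed the abundance filter only through Abl.4, so its difference of -2.25 between Abl.2 and Abl.4 is a description. The central factor Atf4 was at 327 to 437 TPM in every library, so its transcript was abundant where Fam129a was listed at 0. In the unfolded protein response, 13 of 13 genes were tested: 6 were higher and 1 lower in Abl.2 than in Abl.3 (5 and 3 with quantile normalisation, 3 and 2 by edgeR on summed allelic counts), 3 and 4 against Abl.4, and 1 and 5 in Abl.3 against Abl.4. The shares of all genes were 25.9% and 14.0%, 15.0% and 18.4%, and 11.3% and 26.8%. Herpud1, of endoplasmic reticulum degradation, was the 1 that was lower in the first pair, at 217 TPM in Abl.2, 345 in Abl.3 and 565 for Abl.4.

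In the ERK pathway, upstream of Fam129b, 25 of 27 genes were tested. In Abl.2, 9 were higher and 3 lower than in Abl.3 (8 and 6 of 21 by edgeR on summed allelic counts). Against Abl.4 the counts were 5 and 6, and in Abl.3 against Abl.4 they were 3 and 9. Among all genes the limma shares were 25.9% and 14.0%, 15.0% and 18.4%, and 11.3% and 26.8%, so several of these counts lie near the background. Spry1 was 3.67 higher in Abl.2 than in Abl.3 and 3.30 higher than in Abl.4, with adjusted p of 5.78e-06 and 8.70e-06 by limma. Phlda1 was 2.06 higher in Abl.2 than in Abl.3 (adjusted p 2.56e-05 by limma). The immediate early gene Fos was highest in Abl.4, at 164 ± 18.0 TPM against 51.6 ± 0.516 in Abl.2 and 48.6 ± 2.52 in Abl.3 (n = 2, SD), and Spred1 was lower in Abl.3 than in Abl.4 (difference -1.89, adjusted p 0.000118 by limma). The members of this list thus had no common order over the lines. List directions are given for TPM as deposited.

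Among other signalling proteins with a pleckstrin homology domain, 31 of 36 were tested, and their counts have the same background. In Abl.2 against Abl.3, 10 were higher and 4 lower; against Abl.4, 2 and 8; and in Abl.3 against Abl.4, 1 and 15. The last counts were 1 and 7 with quantile normalisation, and 1 and 5 of 24 by edgeR on summed allelic counts. The limma counts lower than Abl.4 hold Skap1, at 0.715, 0.185 and 3.65 TPM in Abl.2, Abl.3 and Abl.4. It passed the abundance filter only through Abl.4, so its part in these counts is a description. The adaptor Gab1 was at 18.0 TPM in Abl.2, 5.29 in Abl.3 and 27.4 for Abl.4, and the kinase Tec at 44.5, 20.8 and 25.6. The largest difference called in Abl.2 against Abl.3 was that of Gab1, at 1.59 (adjusted p 9.88e-05 by limma). Fam129c was chosen for its abundance difference, so the list is not compared with it in size. Btk, the kinase of B-cell receptor signalling, was at 98.3 to 111 TPM in all 6 libraries.

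B-lineage markers did not all follow the order of Fam129c: the line means of Pax5 and Cd79a did, while Cd79b, Ebf1 and Blnk were highest in Abl.4. For Cd79a the Abl.2 libraries (3098 and 2899 TPM) overlapped those of Abl.4 (2757 and 3094 TPM). Of all genes, limma called 25.9% higher and 14.0% lower in Abl.2 than in Abl.3, 15.0% and 18.4% against Abl.4, and 11.3% and 26.8% in Abl.3 against Abl.4. Of 5 B-lineage genes, 5 were higher in Abl.2 than in Abl.3 and 0 lower (2 higher and 0 lower by edgeR on summed allelic counts); against Abl.4, 1 was higher and 2 lower (0 and 2 by edgeR); and in Abl.3 against Abl.4, 0 were higher and 4 lower (0 and 2 by edgeR). Pax5, the B-cell identity factor, was at 226 ± 27.9, 60.1 ± 5.49 and 161 ± 6.72 TPM (n = 2, SD), and was 1.89 higher in Abl.2 than in Abl.3 (adjusted p 6.52e-05 by limma). Its difference between Abl.2 and Abl.4 was 0.49 (adjusted p 0.0175 by limma), against 3.89 for Fam129c, which was chosen for its difference. That Pax5 call was lost with summed allelic counts (0.21, adjusted p 0.287 by edgeR) and without Abl.2 replicate 1 or either Abl.4 library. Ebf1 was at 137 to 188 TPM over all libraries. Of 8 pro-B and pre-B genes, 3 were higher and 1 lower in Abl.2 than in Abl.3, 3 and 3 against Abl.4, and 3 and 3 in Abl.3 against Abl.4. By edgeR on summed allelic counts these were 2 and 6, 1 and 2, and 1 and 2, and the median of the first pair turned from 0.08 to -0.33. Rag1 was at 23.3, 4.87 and 11.4 TPM and Rag2 at 19.1, 44.9 and 25.0. Of the mature B genes 3 were tested, with 1 and 1, 0 and 1, and 1 and 2 called higher and lower in the 3 pairs (2 and 0, 2 and 0, and 0 and 1 of 2 genes by edgeR on summed allelic counts). Ms4a1, at 0.15, 6.14 and 0.365 TPM, passed the abundance filter only through Abl.3, so its part in the limma counts is a description. Of the plasma cell genes 3 were tested, with 3 and 0, 0 and 0, and 0 and 3.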

How the data were processed

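Maternal and paternal counts at SNPs within genes are whole numbers deposited by the authors, per the file headers. The abundance values are TPM that the authors made by DESeq2, per the file headers. The authors' deposited fraction of maternal counts per line has confidence limits and averages replicates, per the file headers. The submitters' processing notes name STAR 2.5.4a, SAMtools, GATK and DESeq2, and the builds GRCm38, mm10 and GRCh37, with no roles. Strand use and the counting of shared reads are not given in the sources used here. Of 35412 genes compared, 98.7% start where GENCODE M21 (GRCm38) has them.

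Libraries were grouped by line from their titles. Abundance was tested with limma 3.58.1 (trend) on log2(TPM + 1) over 11003 genes at a mean of 1 TPM or more. Maternal and paternal counts were tested with edgeR 4.0.16 (quasi-likelihood, R 4.3.3), library intercepts and 1 allele effect for each line, over 8702 genes with 20 counts in each library. Standard errors of edgeR estimates are the estimate over the square root of its F, which is imprecise near an estimate of 0. Benjamini-Hochberg adjusted p-values below 0.05 were called. DESeq2 1.42.0 was an alternative for allelic counts. Others were coverage minimums of 10 and 50 or set by line, a pseudocount of 0.1, no filter, quantile normalisation, summed allelic counts, allele-specific totals, a replicate block and each library left out. Scripts were tested on simulated data. Intervals are 95% Wilson intervals, and the limit for a count of 0 is 3 counts of the total. Both cover counting error only, since reads are not independent molecules.

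Named were the members, the 5 most alike genes per member, neighbours, and up to 2 called genes per list and pair with separated libraries. Genes named outside this rule (Btk, Atf4, Ebf1, Cd79a, Cd79b, Csf1r, Adgre1, Cd14, Hbb-bs) were chosen after their values were seen. 1 B-lineage marker of the design is not reported here. Members and lists were chosen with earlier results of these data known. The design left the abundance unit open, and its test for normalised values was run on the TPM.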

Additional observations from a re-analysis of the deposited data

Results flagged for a closer look

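These allelic ratios differed between lines (edgeR quasi-likelihood, test of the difference between lines) on the log2 scale, positive where the maternal share was higher in the first line. Pgls, which overlaps Fam129c, differed by 1.78 for Abl.2 against Abl.3, 1.38 for Abl.2 against Abl.4 and -0.40 for Abl.3 against Abl.4. For Colgalt1 the values were 1.77 and 1.68, for Unc13a 2.31 and 2.11, for Bst2 1.25 and 1.67 and for Jak3 0.24 and 0.27, in the first 2 pairs. Slc27a1 had fitted values of 17.98, 5.09 and -12.88. Those that involve Abl.3, where its maternal count was 0, depend on the prior count and are no bound. Rgl1, near Fam129a, differed by 0.28 for Abl.2 against Abl.4, with an adjusted p of 0.0200 by edgeR, and the call was lost without either Abl.2 library (0.153 and 0.0614) or Abl.4 replicate 2 (0.0652).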

How the results depend on the processing

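Over the alternatives run, 190 of 204 values of Fam129b and Fam129c kept their direction and side of the threshold, or moved by less than the replicate spread. The tally scores allelic ratios of Fam129c by p-value although that gene carries no test, so it lends them no support. For abundance, a replicate block, no filter or leaving out a library of a line outside the pair cannot move the difference. Such differences were kept by construction, so the tally overstates how stable the values are. With summed allelic counts the abundance difference of Fam129c was 4.56 for Abl.2 minus Abl.3 and -0.56 for Abl.3 minus Abl.4, and with quantile normalisation the latter was -0.83. With DESeq2, the allelic difference of Fam129c for Abl.3 minus Abl.4 was -0.94 and its imbalance in Abl.3 0.58. The cause was not tested.

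With each library left out in turn, the Fam129c abundance difference ranged from 3.59 to 4.18 for Abl.2 minus Abl.4 and from -1.37 to -0.78 for Abl.3 minus Abl.4. Its allelic difference for Abl.3 minus Abl.4 ranged from -1.38 to -0.50, and its imbalance in Abl.3 from 0.14 to 1.02. The Fam129b abundance difference for Abl.3 minus Abl.4 ranged from 0.57 to 0.80. Its imbalance in Abl.3 ranged from 0.66 to 1.02 and passed without Abl.4 replicate 2, at 0.83 with an adjusted p of 0.0489 by edgeR. Counts of genes with an abundance call ranged from 2529 to 4565, 2040 to 3269 and 2336 to 3659 for the 3 pairs, against 4382, 3682 and 4194 with all libraries. A line left with 1 library was assumed to vary like the others.

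Small differences between Abl.3 and Abl.4 changed sign: Eci1 was at 0.12 with quantile normalisation and ranged from -0.18 to 0.062 with libraries left out (0.0049 without Abl.3 replicate 2). En2 was at 0.063 and Serpina3g at 0.046 with quantile normalisation. Of 2869 values for other named genes, 2712 kept their call, 73 lost it, 26 gained it, 53 moved and 5 changed sign. The 2712 also hold abundance differences that some alternatives could not move.

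Of abundance calls, 65.0%, 44.9% and 29.8% were higher in the first line of the 3 pairs, and 51.4%, 52.8% and 52.0% with quantile normalisation, which brought the median difference of all genes from -0.15 to 0.03 in the last pair. Between Abl.3 and Abl.4 this scaling left 1 pleckstrin homology gene higher and 7 lower, and turned the median of the stress response list to 0.04.

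Replicate numbers are shared between lines, but 2 pairs cannot show a pairing (correlation of deviations 0.10, 0.19 and 0.16). With a replicate block, calls numbered 5213, 4608 and 5184 for abundance and 2404, 1894 and 1343 for the allelic difference, and Fam129c differed by 5.71, 4.77 and -0.94. Under it Jak3 was at 0.24 for Abl.2 minus Abl.3, with an adjusted p of 0.0624 by edgeR. Coverage of Fam129b, at 57 to 232 counts, limits its shares.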

Other observations

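Other genes within 400 kb of Fam129c also had unequal alleles, in the opposite direction. Cyp4f18, a fatty acid hydroxylase of leukocytes, has its lower coordinate 391 kb after the start of Fam129c. It had maternal shares of 0.0516, 0.178 and 0.221 in Abl.2, Abl.3 and Abl.4. Its abundance was 180, 34.0 and 1029 TPM, so its order over the lines differed from that of Fam129c. Zfp961, at 353 kb, had shares of 0.104, 0.273 and 0.225. Zfp709, at 284 kb, had shares of 0.0038 ± 0.0054, 0.016 ± 0.023 and 0.279 ± 0.140 (n = 2, SD). Its level was low, at 2.745, 3.365 and 7.22 TPM. These genes were chosen after their values were seen.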
